A study of Mus musculus with 3 samples.

Results

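The genes described here are 10 transcription factor genes that direct blood lineages other than the macrophage. They are Tal1, Gata2, Gfi1, Gfi1b, Gata3, Tbx21, Lef1, Tcf7, Ebf1 and Pax5, out of 21887 protein-coding genes. Occupancy by EZH2 was read from ChIP-seq, the sequencing of DNA pulled down with an EZH2 antibody, in macrophages grown from mouse bone marrow. In the LPS group, marrow cells from the leg bones of adult C57BL/6 mice were cultured for 5 days with M-CSF-conditioned medium and then stimulated for 2 h with lipopolysaccharide (LPS), a bacterial product that activates Toll-like receptors. The untreated group (NT) had the same strain, culture and antibody and no LPS. There was 1 EZH2 library per condition, so no difference below has a replicate check and none is tested. An input DNA library made up the 3 samples and was not analysed here. The number of mice, any pooling of animals and the LPS dose are not given in the sources used here. Every interval and summit from 10 kb before to 10 kb after each gene was taken. The 10 genes were chosen by lineage role with these interval lists and summit values known, so their counts and levels are given as a description and support nothing about genes of this kind.

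EZH2 is the catalytic subunit of polycomb repressive complex 2, which methylates lysine 27 of histone H3. The complex is known for occupying promoters rich in CpG dinucleotides, above all those of developmental regulators that a cell type does not use. Blood cells arise from a common stem cell, and each branch depends on a small set of transcription factors, many of which are silent in macrophages. Transcription was not measured here, so neither the silence of these genes nor the macrophage identity of the cultures could be checked against marker RNA. Occupancy comes from the whole culture, so a lower level in every cell and a loss from part of the cells cannot be told apart.

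The promoters of 6 of the genes are printed below because they span the patterns seen, which were no interval (Gfi1b), a single strong interval over the start (Gfi1, Tbx21), a low LPS value (Tal1), a low NT value (Ebf1) and a broad domain (Gata2). Each line holds the 250 bases before the first annotated start of transcription, 5′ to 3′ on the gene's own strand, from RefSeq on GRCm38.p6, the assembly of mm10. Capitals mark every CpG dinucleotide. The positions are chr5:107725806-107726055 for Gfi1 and chr2:28621983-28622232 for Gfi1b, both on the minus strand, and chr11:97115332-97115581 for Tbx21, also minus. Those on the plus strand are chr4:115056176-115056425 for Tal1, chr11:44617850-44618099 for Ebf1 and chr6:88193641-88193890 for Gata2.
Gfi1: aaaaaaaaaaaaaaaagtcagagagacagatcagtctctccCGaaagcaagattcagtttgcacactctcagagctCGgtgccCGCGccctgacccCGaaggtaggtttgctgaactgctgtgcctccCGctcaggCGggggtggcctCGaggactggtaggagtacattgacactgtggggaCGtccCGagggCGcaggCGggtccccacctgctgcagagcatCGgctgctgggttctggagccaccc
Gfi1b: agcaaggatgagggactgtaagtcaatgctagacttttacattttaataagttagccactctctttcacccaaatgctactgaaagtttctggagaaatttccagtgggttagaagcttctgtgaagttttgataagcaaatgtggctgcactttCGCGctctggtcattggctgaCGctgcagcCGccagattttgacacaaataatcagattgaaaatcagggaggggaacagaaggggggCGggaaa
Tbx21: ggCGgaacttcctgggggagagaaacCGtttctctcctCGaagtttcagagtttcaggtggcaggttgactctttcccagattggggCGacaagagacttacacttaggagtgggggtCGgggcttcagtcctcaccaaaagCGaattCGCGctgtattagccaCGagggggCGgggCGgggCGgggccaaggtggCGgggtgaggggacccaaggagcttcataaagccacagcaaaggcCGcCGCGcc
Tal1: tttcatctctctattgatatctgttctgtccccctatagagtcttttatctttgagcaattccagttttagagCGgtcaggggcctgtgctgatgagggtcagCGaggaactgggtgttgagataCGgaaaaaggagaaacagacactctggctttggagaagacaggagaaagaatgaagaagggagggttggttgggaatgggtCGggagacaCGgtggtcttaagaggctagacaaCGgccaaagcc
Ebf1: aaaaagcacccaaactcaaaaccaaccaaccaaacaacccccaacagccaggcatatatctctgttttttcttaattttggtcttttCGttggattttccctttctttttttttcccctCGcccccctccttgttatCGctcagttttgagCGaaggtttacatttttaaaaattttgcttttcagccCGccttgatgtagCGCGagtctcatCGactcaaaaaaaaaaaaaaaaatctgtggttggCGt
Gata2: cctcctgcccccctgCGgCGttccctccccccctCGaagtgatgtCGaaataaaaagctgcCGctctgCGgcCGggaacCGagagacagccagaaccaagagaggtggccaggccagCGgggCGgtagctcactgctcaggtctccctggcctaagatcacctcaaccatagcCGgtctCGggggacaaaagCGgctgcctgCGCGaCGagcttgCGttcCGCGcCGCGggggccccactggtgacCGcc

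These 6 sequences held 13 CpG in Gfi1, 5 in Gfi1b, 16 in Tbx21, 6 in Tal1, 9 in Ebf1 and 22 in Gata2. The C and G content was 67.2% at Gata2, 48.8% at Tal1 and 44.4% at Gfi1b, and was lowest at Ebf1. The Gfi1b sequence was thus the poorest of the 6 in CpG, though not in C and G.

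Of the 10 genes, 9 had an LPS interval and the same 9 had an NT interval. Over all protein-coding genes, 21.2% had an LPS interval, 46.0% an NT interval and 20.6% both. No gene had an interval of NT alone, a state found at 25.4% of all genes, or of LPS alone, found at 0.635%. Gfi1b had none in either library. The windows held 19 LPS intervals over 55.2 kb and 20 NT intervals over 67.8 kb, and no window overlapped another. An interval is a stretch that the authors' peak caller listed as enriched, and its summit value is their number at its highest point, in a unit that is not given. The LPS list held 4651 intervals with summit values from 7 to 100, and the NT list held 9643 with values from 11 to 253. Depth and scaling of the libraries are unknown, so an LPS value below its NT value cannot be read as less EZH2. Each ratio is therefore set against the ratios at the other genes of these libraries.

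**Figure D1:**
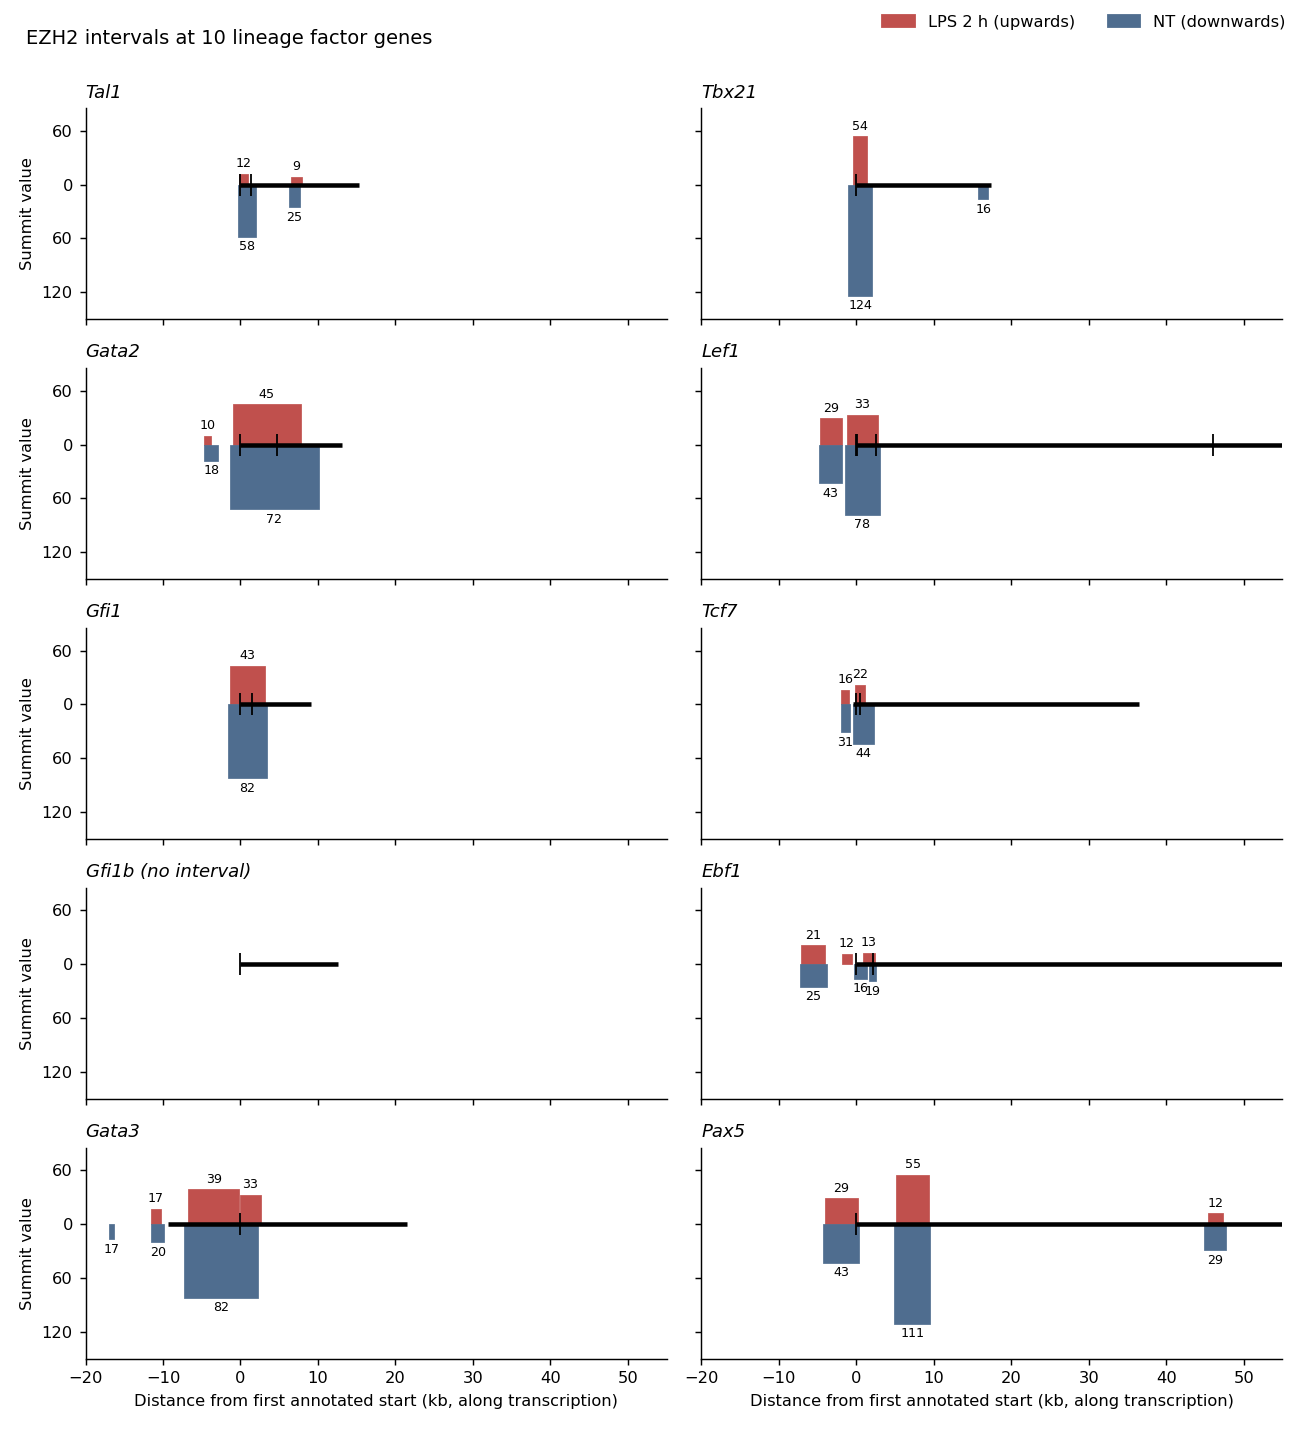
EZH2 intervals at each gene by distance from its first annotated start in kb along transcription, with bar height giving the summit value, LPS drawn upwards and NT downwards. The black line is the gene and upright ticks are annotated starts. Gfi1b is empty, Gfi1 and Tbx21 carry their highest interval over the start, and the highest Pax5 bar lies inside the gene. Ebf1, Lef1 and Pax5 run on past the right edge.

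The highest summit value within 10 kb had a median over the 9 genes of 39 in LPS and 78 in NT. Over all genes with an interval of the library, these medians were 18 and 29. The ratio of LPS to NT, taken between the highest values, had a median of 0.50 over the 9 genes (0.4955) and of 0.49 over the 4511 genes with both (0.4878). By highest value all 9 genes but Tal1 in LPS (78.0% from the top) and all but Ebf1 in NT (62.8% from the top) stood above the middle of the genes with an interval. By ratio the median gene stood near the middle. Of the 9 ratios, 5 lay under 0.5, against 52.0% of the genes with both. They ran from 0.2069 at Tal1 to 0.84 at Ebf1.

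**Figure D2:**
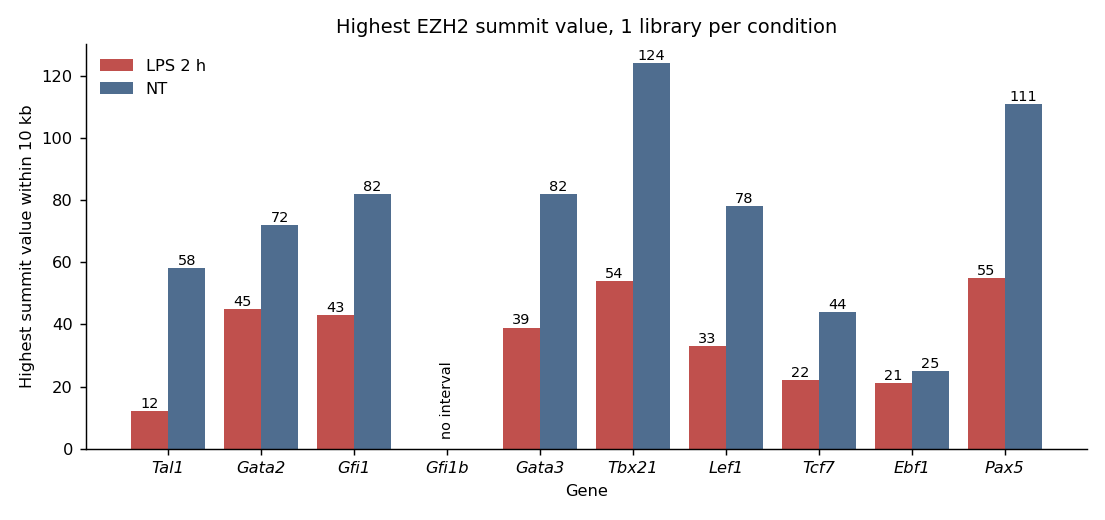
Highest summit value within 10 kb of each gene, in the single LPS library (left bar of each pair) and the single NT library (right bar). Tbx21 and Pax5 are highest, with 54 and 55 in LPS and 124 and 111 in NT, and Ebf1 has the closest pair, 21 and 25.

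Among the stem cell and erythroid factors, Tal1 encodes a basic helix-loop-helix factor needed to form blood stem cells and later red cells. It lies on the plus strand of chromosome 4 from 115056426 to 115071755. Over its first start the summit value was 12 in LPS and 58 in NT, in intervals of 1224 bp and 2208 bp. Of the 4511 genes with both, 0.355% had a ratio at or below this 0.2069. The summits of the libraries lay 48 bp apart, so the low LPS value belongs to the same place. The LPS interval ended at 115057453, before the second annotated start at 115057811, while the NT interval ran past it to 115058378. Inside the gene, 7172 bp after the first start in LPS and 7191 bp after it in NT, further intervals had values of 9 in LPS and 25 in NT. Their ratio was 0.36, with 16.1% of all overlapping pairs of intervals at or below it, so both places in Tal1 had low ratios. The LPS value of 12 lay between the lowest listed value of 7 and the median of all LPS intervals, 16, and ranked 3628 among the 4650 genes with an LPS interval, while the NT value ranked 1050 among 10076.

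Gata2, which encodes a zinc finger factor that maintains stem and progenitor cells and serves mast cells, had the widest domain. The gene spans 88193891 to 88207032 on chromosome 6, plus strand. The main interval measured 8.85 kb in LPS (8.845) and 11.5 kb in NT (11.509), covered both annotated starts in each library, and had summit values of 45 in LPS and 72 in NT. The ratio of 0.625 was higher than at most genes, with 85.9% of genes at or below it. The highest point lay 254 bp after the first start in LPS and 1319 bp before the second start in NT, which put the summits 3200 bp apart. Of all 4509 overlapping pairs of LPS and NT intervals, 2.0% had summits at least that far apart. Interval width limits this distance, and the median widths over the whole lists were 1472 bp in LPS and 1305 bp in NT. The part of width was not tested. A weaker interval about 4.2 kb before the first start (4290 bp in LPS, 4162 bp in NT) had 10 in LPS and 18 in NT. All of these intervals also overlap the annotated span of the long non-coding RNA gene Gm38708, so the signal cannot be given to Gata2 alone.

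Gfi1 and Gfi1b encode closely related zinc finger repressors, the first acting in stem cells, granulocytes and lymphocytes and the second in red cells and platelet precursors. Gfi1, on the minus strand of chromosome 5 from 107716655 to 107725805, had 1 interval per library, with 43 in LPS and 82 in NT. These measured 4526 bp and 4968 bp, and the LPS interval lay wholly inside the NT interval. Their summits were 16 bp apart, 412 bp after the start in LPS and 428 bp after it in NT. Both annotated starts of Gfi1 were covered in both libraries. The ratio of 0.5244 had 61.6% of genes at or below it. Gfi1b, on the minus strand of chromosome 2 from 28609450 to 28621982, had no listed interval in its window of 32.5 kb. The nearest NT interval lay 18.6 kb away over Tsc1 with a value of 23, and the nearest LPS interval was 161.5 kb away. Occupancy at Gfi1b under the listing limit of the authors' caller was not detectable in these lists. The paralogs thus differed in both libraries by the presence of an interval, and their promoters, printed above, differed in CpG number.

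The T cell and NK cell factors were Gata3, Tbx21, Lef1 and Tcf7. Gata3 directs T cell development and the type 2 helper state. On chromosome 2 from 9857078 to 9887953, its start on the minus strand at 9878600 lay in an NT interval of 9596 bp with a summit value of 82. In LPS the same stretch was listed as 2 intervals with only 49 bases between them, with a value of 33 in the interval over the start and 39 in the one before the start. The highest points of the stretch were 320 bp apart, 4281 bp before the start in LPS and 3961 bp before it in NT. Both fell inside the long non-coding RNA gene 4930412O13Rik and also inside the annotated span of Gata3. That span reaches past the start used here to 9887953, so these points lie before this start but not outside the gene. Further out, 10809 bp before the start in LPS and 10361 bp in NT, intervals with 17 in LPS and 20 in NT met, and their ratio of 0.85 was among the highest of all pairs, with 96.9% at or below it. The outermost NT interval, of value 17 and with its summit 16729 bp before the start, met no LPS interval.

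Tbx21 encodes T-bet, the factor of type 1 helper T cells and NK cells, and had the highest NT value of the 10 genes. It lies on the minus strand of chromosome 11 from 97098007 to 97115331. The interval over its only annotated start had 54 in LPS and 124 in NT. This NT value ranked 97 among the 10076 genes with an NT interval, and the LPS value ranked 179 among 4650. The summits were 32 bp apart, at 354 bp after the start in LPS and 386 bp in NT. The LPS interval of 1840 bp was narrower than the NT interval of 3123 bp, a width ratio of 0.589 against a median of 0.822 over all pairs. The ratio of summit values was 0.4355, with 34.1% of genes at or below it. Toward the other end of the gene, 16354 bp after the start, NT had an interval with a value of 16 that met no LPS interval.

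Lef1 and Tcf7 encode the high mobility group factors that carry Wnt signals in lymphocyte precursors and T cells. At Lef1, on chromosome 3 from 131110297 to 131224357, plus strand, the interval over the 3 starts at the front of the gene had 33 in LPS and 78 in NT. A second interval about 3.7 kb before the first start (3736 bp in LPS and 3672 bp in NT), over the long non-coding RNA gene Gm36603, had 29 in LPS and 43 in NT. The ratio was thus 0.4231 over the starts and 0.6744 in front of them, so that in LPS these values were close to each other and in NT they were not. The start inside the gene at 131156294 had no interval in either library. Tcf7, on the minus strand of chromosome 11 from 52246527 to 52283383, had lower values, 22 in LPS and 44 in NT over its starts. An interval about 1.5 kb before the first start (1451 bp in LPS and 1515 bp in NT) had 16 in LPS and 31 in NT. Both Tcf7 ratios, 0.5 and 0.5161, lay near the median of all pairs, 0.4955.

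The B cell factors differed from each other. Pax5, which fixes B cell identity, lies on the minus strand of chromosome 4 from 44524748 to 44710694 and had 3 intervals in each library. The highest was not at the start but inside the gene, with its summit 6981 bp after the start in LPS and 6661 bp in NT. It had 55 in LPS and 111 in NT, and overlapped the long non-coding RNA gene 5730488B01Rik. The interval over the start had 29 in LPS and 43 in NT, and the deepest interval, about 46 kb inside the gene (46501 bp in LPS and 46085 bp in NT), had 12 in LPS and 29 in NT. The ratio was 0.4955 at the highest interval, 0.6744 over the start and 0.4138 at the deepest. The order of the 3 places by level was the same in both libraries.

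Ebf1, which acts before Pax5 in B cell commitment, had the lowest NT value of the 9 genes with intervals. It is also the longest of the 10, 390 kb (389.997) on chromosome 11 from 44618100 to 45008096, plus strand, and all of its intervals lay near the front. The highest, about 4.8 kb before the first start (4819 bp in LPS and 4755 bp in NT) and over no annotated gene, had 21 in LPS and 25 in NT. The ratio of 0.84 was high among the genes with both, with 98.3% at or below it. Over the starts the libraries were cut differently. NT had an interval of value 16 over the first start and another of 19 over the second, and a single LPS interval of value 13 met both and covered the second start alone. An LPS interval of value 12, with its summit 1203 bp before the first start, met no NT interval, and was the only LPS interval of the 19 without an NT partner. The LPS value of 21 lay above the median of all LPS intervals, 16, and the LPS values of 12 and 13 lay below it. The NT values of 16 to 25 all lay below the median of all NT intervals, 27.

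**Figure D3:**
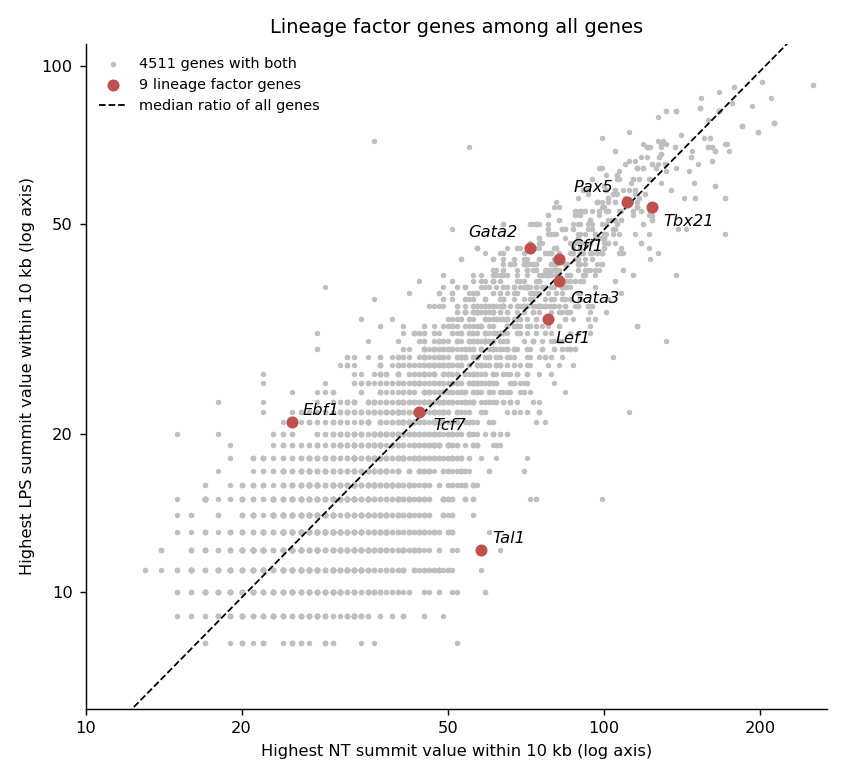
Highest LPS summit value (vertical, log axis) against highest NT summit value (horizontal, log axis) within 10 kb, for the 4511 genes with both (grey) and the 9 lineage factor genes with both (red). The dashed line is the median ratio of all these genes. Tal1, at 12 in LPS and 58 in NT, lies well below the line, Ebf1 lies above it, and the others lie closer to it.

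By rank, 4 of the 10 genes were in the upper 10% of genes with an LPS interval (Pax5, Tbx21, Gata2 and Gfi1) and 6 in the upper 10% of genes with an NT interval (Tbx21, Pax5, Gata3, Gfi1, Lef1 and Gata2). In LPS the highest summit values were in the order Pax5 (55), Tbx21 (54), Gata2 (45), Gfi1 (43), Gata3 (39), Lef1 (33), Tcf7 (22), Ebf1 (21) and Tal1 (12). In NT the order was Tbx21 (124), Pax5 (111), Gata3 and Gfi1 (82), Lef1 (78), Gata2 (72), Tal1 (58), Tcf7 (44) and Ebf1 (25). With no replicate the spread of a value is unknown, so neighbours such as Pax5 and Tbx21 cannot be put in order. The genes closest to the median member in both values, over these 2 libraries, were tied at 40 in LPS and 78 in NT. They were the axonal motor gene Kif1a, the homeobox gene Lhx6, Zfp651, and Nktr and Rbm18, whose highest intervals lie over their neighbours Zfp651 and Lhx6.

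Of the 19 LPS intervals, 18 met an NT interval, against 94.1% of all LPS intervals. Of the 20 NT intervals, 18 met an LPS interval, against 43.2% of all NT intervals. Both NT intervals without a partner were weak, with 16 at Tbx21 and 17 at Gata3. Among NT intervals with a summit value of 30 or more, 11 of 11 were met, against 71.3% of all such intervals, and among those under 30, 7 of 9 were met, against 24.8%. The NT intervals at these genes were also wide, with a median of 2740 bp (2739.5) against 1305 bp over the whole list, and the LPS intervals had 1948 bp against 1472 bp. The part of width in these counts was not tested. The summits of the 19 overlapping pairs lay a median of 160 bp apart, against 139 bp over all 4509 pairs. In 8 of the 19 the distance was at most 100 bp, against 43.3% of all pairs, and in 3 it was over 1000 bp, against 9.76%. Most summit positions fell on steps of 16 bp (93.3% in LPS and 96.6% in NT), so distances of this order carry no information.

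An annotated start lay inside an LPS interval at 9 of the 10 genes and inside an NT interval at the same 9. The share of all genes with a covered start was not computed, so this count cannot be called high or low. A gene with more listed starts is also more easily counted. The RefSeq promoter table used here holds 18 starts for the 10 genes. The annotated spans of Gata3 and Tcf7 reach further out than their first listed start. At these genes the bases before that start lie inside the span, and starts further out may be missing. The 250 bases before the start were met by an LPS interval at 14 of these 18 promoters, against 11.6% of 21263 promoters of protein-coding genes, and by an NT interval at 16 of 18, against 32.1%. The 4 without an LPS interval were those of Gfi1b, the inner Lef1 start, the second Tal1 start and the first Ebf1 start. The last 2 of these had an NT interval.

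CpG content was intermediate in these promoters. It was not itself used to choose the genes. They were chosen with their intervals known, and intervals go with CpG number over all promoters, so CpG content is not independent of that choice. The 18 promoters had a median of 14 CpG in 250 bases, against 10 over all promoters and 18 over all promoters with an LPS interval. All 18 had 5 or more CpG, as did 66.3% of all promoters and 95.8% of those with an LPS interval. The 2 promoters with no interval in either library, Gfi1b and the inner Lef1 start, had 5 CpG each, the fewest of the 18. The first Tal1 start had 6 and was covered in both libraries, so a low CpG number and the absence of an interval did not go together at every gene. At the other end Tcf7 had 37 CpG before its first start, with summit values no higher than 22 in LPS and 44 in NT. Over all genes the share of promoters with an interval went up with CpG number. With 0 to 4 CpG, 1.45% had an LPS interval and 2.62% an NT interval, and with 20 or more these shares were 22.0% and 63.2%. Among promoters with 5 to 9 CpG, 3 of the 6 of these genes had an LPS interval, against 8.19% of all, and 4 had an NT interval, against 20.6%. Among those with 10 to 19 CpG the counts were 8 and 9 of 9, against 17.5% and 48.8%. As the genes were chosen with their intervals known, the counts by CpG class are a description only.

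**Figure D4:**
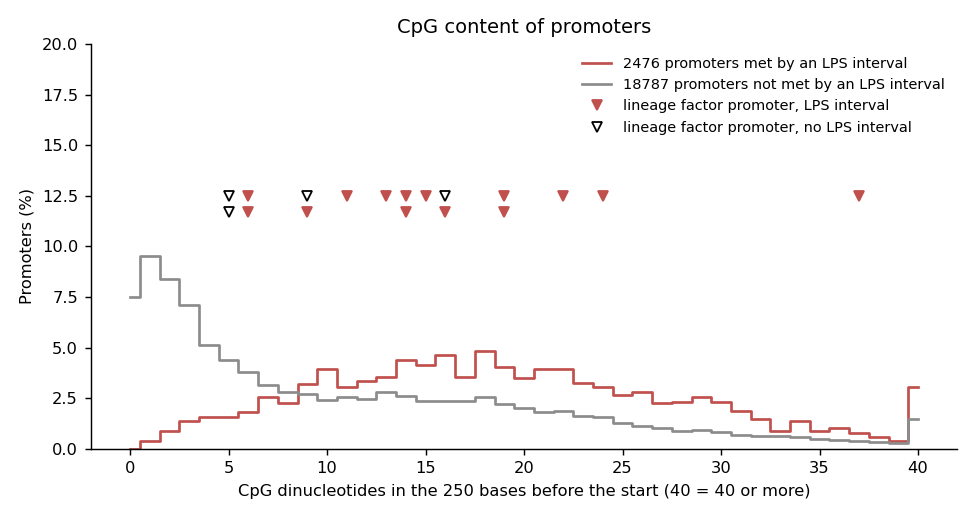
Distribution of the number of CpG dinucleotides in the 250 bases before the start, as a percent of the promoters that an LPS interval met (red line) and did not meet (grey line). Triangles mark the 18 promoters of the lineage factor genes at their CpG number, filled where an LPS interval met them, and their height has no meaning. The open triangles at 5 are Gfi1b and the inner Lef1 start.

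The sequence GATAA, the core that GATA factors recognise, was searched on both strands (GATAA or TTATC). It occurred in 5 of the 18 promoters (27.8%), against 20.5% of all promoters. They were Gfi1b, the inner Lef1 start, the first starts of Tal1 and Ebf1, and the first start of Tcf7. A match shows only that these letters are present.

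Other factors of these lineages were taken from a list of 39 genes. Of these, 22 had an LPS interval (56.4%, against 21.2% of all genes) and 31 an NT interval (79.5%, against 46.0%). All 22 had both, while 9 had NT alone and none LPS alone, against 20.6%, 25.4% and 0.635% of all genes. The 39 genes are long, with a median of 57.3 kb against 17.2 kb over all genes, so their windows are larger. The part of gene length in these shares was not tested. With the intervals under each list's median summit value dropped, 13 had an LPS interval, and the share of all genes was not computed for this cut. The highest values had medians of 18 in LPS and 37 in NT, where all genes with an interval had 18 in LPS and 29 in NT, so the LPS median was that of all genes. Both lay below the 39 in LPS and 78 in NT of the 10 genes, which had been picked with values in view. The highest NT values were at Meis1 (25 in LPS and 67 in NT), a homeobox gene of stem cells, Ikzf3 (20 and 65), a zinc finger gene of lymphocytes, and Sox4 (37 and 63), which acts in lymphocyte precursors. At Meis1 the highest intervals lay 8.2 kb or so outside the gene (8155 bp in LPS and 8123 bp in NT) over the long non-coding RNA gene 8430419K02Rik, while those over its start had 16 in LPS and 37 in NT. Ikzf1 had 12 in LPS and 21 in NT, and the T cell gene Bcl11b 15 and 27. Runx1, used across blood lineages and in macrophages too, had no LPS interval and 37 in NT. The erythroid regulator Gata1 and the regulatory T cell gene Foxp3, both on chromosome X, had no interval in either library, as Gfi1b had none.

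The genes that carry out the work of these lineages showed fewer intervals. Of 48 such genes (globins, surface receptors, granule proteins and the like), 4 had an LPS interval and 9 an NT interval, shares of 8.33% and 18.8% that lie under the 21.2% and 46.0% of all genes. These genes are short, with a median of 7.38 kb against 17.2 kb over all genes and 24.1 kb over the 10 factors, so their windows are smaller. The receptor gene Flt3 had 23 in LPS and 55 in NT over its start. Epor (20 in LPS and 34 in NT) and Kit (16 in LPS and 33 in NT) also had intervals on their own gene in both libraries. Other high values belonged to neighbours. The interval near the platelet integrin gene Itga2b (22 in LPS and 75 in NT) lay over Fam171a2. That near the B cell genes Igll1 and Vpreb1 (no LPS interval and 41 in NT) lay over Top3b. With the gene body alone, 3 of the 48 had an LPS interval and 4 an NT interval. With 25 kb windows 8 had an LPS interval and 18 an NT interval. The shares of all genes were not computed for these windows. None of the globin, Cd3e, Cd79a, Mpo, Elane or Ifng windows held an interval. Those of the T cell genes Cd3g, Cd4 and Lck held one in NT alone, with values of 18, 15 and 12.

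**Figure D5:**
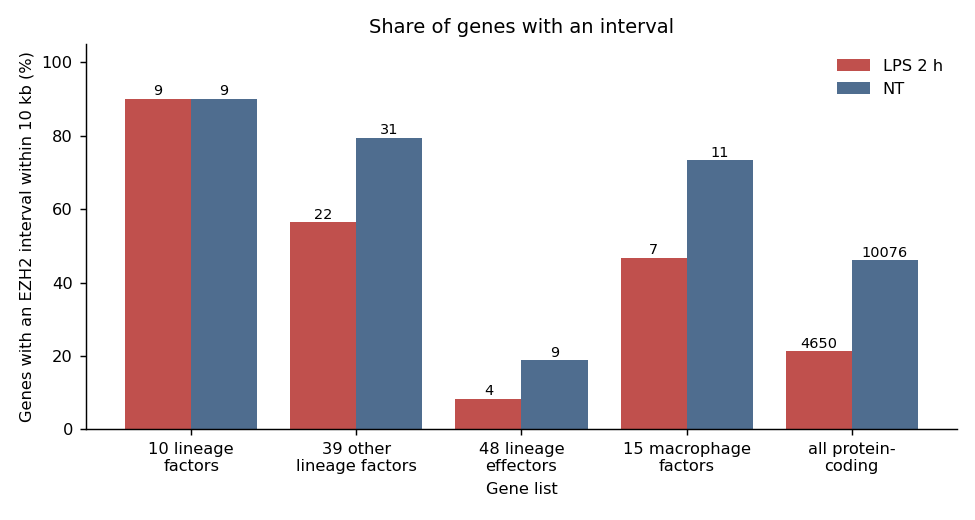
Percent of genes with an EZH2 interval within 10 kb, in LPS (left bar) and NT (right bar), for the 10 lineage factors, 39 other lineage factors, 48 lineage effector genes, 15 macrophage factors and all 21887 protein-coding genes. Numbers over the bars are genes. The effector genes lie below all genes in both libraries, and the other 3 lists lie above. Gene length, and so window size, differs between the lists.

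Intervals were listed at macrophage factors too. Out of 15, 7 had an LPS interval (46.7%, against 21.2% of all genes) and 11 an NT interval (73.3%, against 46.0%), and 7 had both (20.6% of all genes). With the intervals under each list's median summit value dropped, 3 had an LPS interval and 7 an NT interval. The shares of all genes were not computed for this cut. Egr2 had 20 in LPS and 47 in NT, and Maf had 13 in LPS and 41 in NT. Spi1, which encodes the macrophage master factor PU.1, had no LPS interval and 23 in NT. The medians of the highest values were 15 in LPS and 37 in NT, close to those of the 39 other lineage factors and below those of the 10 genes.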

How the data were processed

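EZH2 ChIP-seq was available for 1 LPS and 1 NT library. BWA, SICER and the build mm10 appear in the submitters' processing notes, with no versions or roles. The deposited track file holds, per the file headers, summits and intervals of each library and merged regions, and the summit value is a score that the authors deposited in whole numbers, with no unit given. Read depth, use of the input and scaling are not given in the sources used here, so no interval or floor for counting error could be set. The stimulated track is named TLR and was taken as the LPS sample, the only stimulated EZH2 sample. This limits every LPS value.

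Each summit was paired with the interval that holds it, and positions are printed 1-based. Gene spans came from RefSeq on GRCm38.p6 (the mm10 assembly), and starts, strands and promoters from its promoter table, which held all 10 genes. An interval counted with 1 bp of overlap in the window. Calculations used Python 3.11.15 with pandas 2.3.3 and numpy 2.4.6, and the overlap code was tested on simulated data. No test was made, since each condition had 1 library.

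The members and lists were chosen with earlier results of these data known. Named genes are all 10 members, the 3 genes of each list with the highest NT value, Gata1, Runx1, Ikzf1, Bcl11b, Foxp3 and Spi1, neighbours at member intervals, and the genes nearest to the median member, where 5 genes tied. The effector genes listed as having no interval, and the limits of 30 on summit value, of 100 bp and 1000 bp on distance and of CpG classes, were chosen after their values were seen. Epor, Kit, Cd3g, Cd4 and Lck were also named with their values known. Alternatives were other windows, the annotated starts, stricter or shorter lists, midpoints, joined intervals and a larger overlap.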

Additional observations from a re-analysis of the deposited data

How the results depend on the processing

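No paired analysis was possible because LPS and NT were a single library each, and no replicate could be left out. Of 428 values recomputed under 9 alternatives, 387 stayed within 1.5 times the reported value and 41 did not, 31 lower and 10 higher. Shares of all protein-coding genes were not recomputed, so the counts below cannot be set against the shares given earlier. The counts of 9 genes with an LPS interval and with an NT interval lay between 8 and 10 under every alternative run. With gene bodies alone LPS covered 36.3 kb, and with these, 2.5 kb windows or starts Ebf1 had 13 in LPS, a ratio of 0.6842. With 25 kb windows 1 gene, Gfi1b, had NT alone. With 2.5 kb around the annotated starts 12 NT intervals were left, LPS covered 33.3 kb and NT 38.1 kb, and Pax5 had 29 in LPS and 43 in NT. When the lower part of each list, under its median summit value, was dropped, 12 NT intervals were left, 1 gene had NT alone (Tal1, whose LPS value fell under the limit of 16) and 1 had LPS alone (Ebf1, under the NT limit of 27). Shortened to its 4651 highest intervals, as many as in LPS, the NT list left 12 NT intervals in the windows and 1 gene with LPS alone, again Ebf1. Among the other lists, 13 of the 39 other factors had an LPS interval and 3 of the 15 macrophage factors an LPS and 7 an NT interval once intervals under the median were dropped. Near the annotated starts 14 other factors had an LPS interval and 7 macrophage factors an NT interval. With 25 kb windows 8 of the 48 effector genes had an LPS and 18 an NT interval, and with 2.5 kb windows or near the starts 5 had an NT interval, and with gene bodies 4. With the NT list shortened, 5 other factors had NT alone and 2 LPS alone, and 7 macrophage factors had an NT interval. By construction the wider window can only add intervals and the smaller windows and shortened lists can only drop them, while NT-alone and LPS-alone counts can move either way. Among the annotated starts, list genes with no start record were left out (10 of 39 other factors, 10 of 48 effectors and 3 of 15 macrophage factors). Depth is unknown. The LPS intervals of Tal1 (12 and 9) and the NT intervals of Ebf1 lie below their list's median value, while the highest LPS interval of Ebf1, 21, lies above it.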

Other observations

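Long non-coding RNA genes lay under part of the signal at these factors. An annotated one was overlapped by 6 of the 19 LPS intervals and 7 of the 20 NT intervals. These lay at Gata2, Gata3, Lef1 and Pax5 in both libraries and at Tal1 in NT alone (Gm33786). The share over all intervals of each list was not computed, so these counts cannot be called high or low. At Gata2, Gata3 and Pax5 it held the highest summit of the gene.

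Beyond the windows, the distance to the next interval was taken for each gene. It was not computed for all protein-coding genes, so the distances cannot be called particular to these genes. At 8 of the 10 genes the next interval of either library was over 25 kb from the gene, and at Ebf1 it was 841.2 kb away in LPS and 97.8 kb in NT. The exceptions were Gfi1b in NT, and Tcf7, where intervals over Skp1 (19 in LPS and 41 in NT) lay 13.9 kb and 13.7 kb from the gene. The next intervals at Tal1 lay over the forkhead gene Foxe3, 129.5 kb away in LPS with a value of 48 and 129.4 kb in NT with a value of 92.

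Among the other lineage factors, chosen after their values were seen, Erg had 25 in LPS and 29 in NT, a ratio of 0.8621 close to that of Ebf1, and Fli1 had 9 and 34, a ratio of 0.2647 close to that of Tal1. Both encode ETS factors of stem cells and platelet precursors. With 1 library per condition these are values only.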
